A study of Schizosaccharomyces pombe with 130 samples.

Results

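Amino acid biosynthesis genes were followed in fission yeast (Schizosaccharomyces pombe) by name: every gene of the files whose name is arg, lys, his, leu, met, trp, aro, ilv, thr, ser or shm followed by a number. The rule found 56 of 7021 features, and 5111 of those features are protein-coding genes. Of the 56, 3 genes (leu1, his3 and his7) carry alleles that serve as auxotrophy markers in the strain table of the study, and they are described apart. Among the other 53, 50 are annotated as enzymes of amino acid synthesis or of the sulfur and one-carbon steps that feed it. The remaining 3 share only the name: arg82 is annotated as an inositol polyphosphate kinase, and trp1322 and trp663 are annotated as TRP-like ion channels. By pathway, the 53 genes split into 12 of methionine and sulfur, 10 of arginine, 7 of lysine, 6 of tryptophan, 5 of serine and one-carbon metabolism, 4 of histidine, 3 of isoleucine and valine, 3 of the shikimate pathway, 2 of leucine and 1 of threonine.

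Fission yeast makes its own amino acids, so a deletion in one of these pathways usually turns the strain into an auxotroph, and leu1 and his3 are standard selection markers for that reason. Most of these enzymes are housekeeping proteins of euchromatic genes that are well transcribed in growing cells. When amino acids run short, eukaryotic cells slow translation through the kinase Gcn2 and raise many biosynthesis genes through a transcription factor, which is Gcn4 in budding yeast.

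The study asked how heterochromatin and the Ccr4-Not complex, which removes poly(A) tails from RNA, control transcription and RNA levels. It measured p(A) RNA (steady-state polyadenylated RNA, 32 libraries), Pol II RIP (RNA bound to RNA polymerase II phosphorylated at serine of its C-terminal repeat, 37 libraries) and Pol II ChIP with the same antibody (DNA bound by that polymerase, 31 libraries), with 13 input DNA libraries. The mutants lacked Ccr4-Not subunits (caf1Δ, ccr4Δ, mot2Δ and the double mutants caf1Δago1Δ and caf1Δdcr1Δ, caf1*ccr4* with point mutations that abolish catalysis in both deadenylases), RNA decay factors (rrp6Δ, the nuclear exosome nuclease, and exo2Δ, the cytoplasmic 5′ to 3′ nuclease) or heterochromatin and silencing factors (clr4Δ, the H3K9 methyltransferase, swi6Δ and chp2Δ, HP1 proteins that bind the mark, clr3Δ and mit1Δ, a histone deacetylase and a remodeller, and ago1Δ, the Argonaute of the RNAi pathway). Cells were grown in rich medium, which supplies amino acids. All listed strains carry a leu1 allele (leu1-32, or leu1-3 in 1 caf1Δ strain and in the caf1*ccr4* strain). Strain 63 (h+) and strain 65 (h90, with FLAG-tagged ago1) served as wild type: p(A) RNA has 4 wild-type libraries (libraries 1, 3 and 4 of strain 63 and library 2 of strain 65), RIP has 2 of strain 63, and ChIP has 1 of each strain. The clr4Δ, clr3Δ and mit1Δ strains share the mating type and untagged ago1 of strain 63, and ago1Δ shares its mating type. The ccr4Δ and mot2Δ strains and caf1Δ strain 510 match strain 65 in both. The rrp6Δ and exo2Δ strains are h+ with the tag, and swi6Δ, chp2Δ, caf1*ccr4* and caf1Δ strain 591 are h90 without it. Reporter insertions and ade6 or ura4 alleles differ between some strains, with ura4+ at mat3 in swi6Δ and chp2Δ and at imr1R in mit1Δ. The rrp6Δ strain also carries his7-366. Strain 523, used for the other caf1Δago1Δ libraries, is h90, so in RIP it differs from wild type (strain 63, h+) in mating type too. Strains 521 and 524, used for caf1Δdcr1Δ and for some caf1Δago1Δ libraries, are not in the strain table. Most genotypes have 2 to 4 libraries per assay from 1 strain; ccr4Δ has 1 library in RIP and in ChIP and caf1Δdcr1Δ 1 in RIP, so these have values but no test.

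Total counts ranged from 2817056 to 22003055 in p(A) RNA, from 320003 to 5935589 in RIP, from 2461918 to 23440927 in ChIP and from 799821 to 13528054 in input. The files held no identical libraries among 81 pairs of replicates. The deleted gene itself fell below 50% of its lowest wild-type level in 8 of 11 p(A) RNA, 10 of 15 RIP, 6 of 13 ChIP and 9 of 11 input comparisons. It stayed at 0.62 or less of the wild-type level in every input library. The genes that did not fall clearly in p(A) RNA were clr4 in clr4Δ, swi6 in swi6Δ and, in 1 library, caf1 in caf1Δ, and which part of each gene was removed was not analysed here. In ChIP, both caf1Δago1Δ libraries and replicate 3 of chp2Δ stood apart from the other kept libraries, because their counts followed the input DNA (Spearman rho of 0.32 to 0.45 over the 5 libraries of this kind, 2 of them left out already, against 0.0065 to 0.14 in the other 26). ChIP values of caf1Δago1Δ are therefore given apart. Replicates are separate samples by their labels, so p-values measure the spread between these samples, which may be technical. In bulk samples, fewer cells of a type and less RNA per cell cannot be told apart.

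In wild type, the 53 genes were well expressed. Levels are in TPM (length-scaled counts, summed to the same total in each library over protein-coding and repeat features), and their median over the 53 genes was 218 TPM in p(A) RNA, 250.1 TPM in RIP and 220 TPM in ChIP, while the median protein-coding gene had 65.5, 106.5 and 149 TPM. In p(A) RNA, 46 of the 53 lay above the median protein-coding gene, in RIP 41 and in ChIP 37. The highest mean levels in p(A) RNA were those of ilv5 (acetohydroxyacid reductoisomerase, 1068 ± 609 TPM), met26 (homocysteine methyltransferase, the last step to methionine, 1014 ± 578), met14 (adenylyl-sulfate kinase, 893) and lys9 (saccharopine dehydrogenase, 796), with SD over 4 libraries. The lowest were met7 (46.1), arg7 (29.4), trp1322 (13.4) and trp663 (0.44 TPM). In RIP, met26 led with 5352 TPM, ahead of shm1 (serine hydroxymethyltransferase, 1760), ilv5 (1544) and lys4 (homocitrate synthase, 1123), and the same 4 genes led in ChIP, with 2675 TPM for met26.

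Wild-type p(A) RNA libraries differed among themselves at these genes. Relative to the mean of wild type, the median of the 53 genes minus the median of protein-coding genes was 0.20 in libraries 1 and 2 and -0.07 and -0.31 in libraries 3 and 4 (log2 TPM). The 2 pairs lie further apart at single genes: lys12 had 342, 324, 117 and 129 TPM in libraries 1 to 4, and ilv5 had 1784, 1362, 539 and 586 TPM. Libraries 1, 3 and 4 come from the same strain, so strain does not separate them, and what does was not tested. Every p(A) RNA comparison below uses the same 4 libraries, so the mutants are not independent of one another, and the counts are given below without each wild-type library in turn.

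In p(A) RNA, the amino acid genes were lower in several mutants, most of all in rrp6Δ. There, 38 of 53 passed the test as lower and 0 as higher, and 20.7% of protein-coding genes were called lower and 11.9% higher (edgeR quasi-likelihood test, Benjamini-Hochberg adjusted p under 0.05 over all features). In swi6Δ, 28 were lower and 1 was higher (10.6% of protein-coding genes lower and 4.65% higher), and in caf1Δ 21 were lower and 0 higher (6.30% lower and 8.08% higher). In caf1*ccr4*, 17 were lower and 1 higher (6.75% lower and 11.5% higher), in exo2Δ 16 were lower and 5 higher (11.1% lower and 10.6% higher), and in ago1Δ 16 were lower and 0 higher (4.00% lower and 3.52% higher). Fewer passed in clr4Δ, with 7 lower and 0 higher (0.376% lower and 0.574% higher), in ccr4Δ, with 2 lower and 1 higher (1.35% lower and 2.32% higher), and in mot2Δ, with 2 lower and 1 higher (2.22% lower and 2.40% higher). Most of the 53 genes lay above the median protein-coding gene in level, and the part of this in the shares was not tested.

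**Figure D1:**
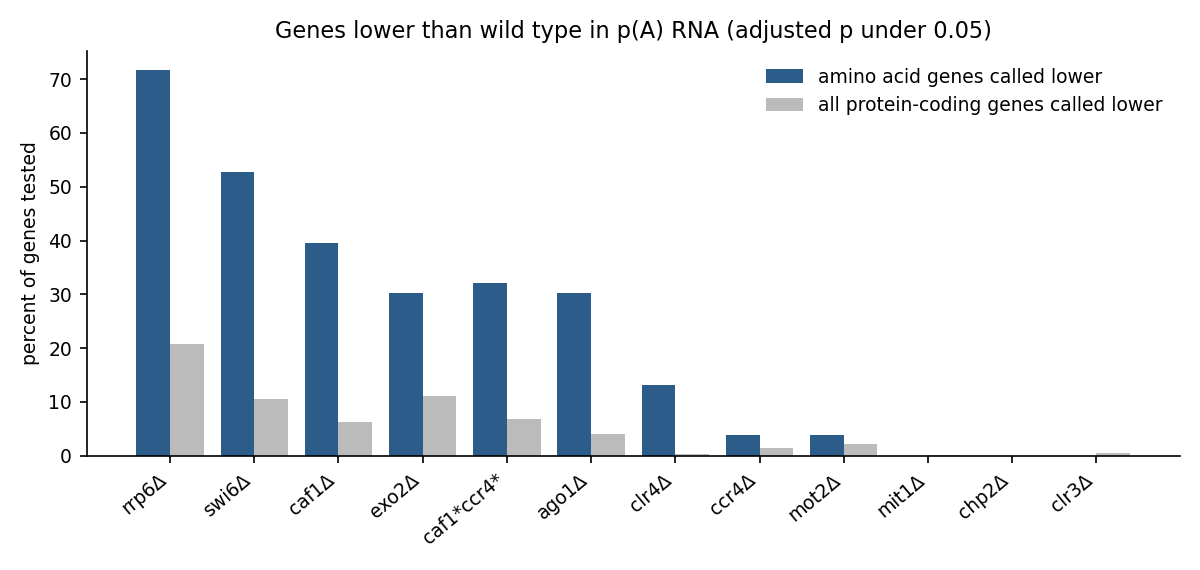
Bars show, for each of 12 mutants, the percentage of the 53 amino acid genes (blue) and of all protein-coding genes (grey) that were called lower than wild type in p(A) RNA. In rrp6Δ 38 of 53 genes were called lower, against 20.7% of protein-coding genes, and in chp2Δ, clr3Δ and mit1Δ 0 of 53.

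No gene of the 53 passed in chp2Δ, clr3Δ or mit1Δ with edgeR, where 16, 3 and 6 had an unadjusted p under 0.05, and DESeq2 called 0 there too. Of protein-coding genes 0.218%, 0.871% and 0.158% were called in these 3 mutants. The median log2 fold change of the 53 genes was -0.83 in rrp6Δ, -0.61 in clr4Δ, -0.60 in caf1Δ, -0.59 in swi6Δ, -0.52 in ago1Δ, -0.46 in exo2Δ and -0.42 in caf1*ccr4*. The median over protein-coding genes in the same fits lay between -0.13 and 0.02. On the scale of TPM the whole distribution sat higher in rrp6Δ, with the median protein-coding gene at 0.21 and 0.25 (log2) above wild type in its 2 libraries, so that TPM values of rrp6Δ understate these differences. That gene lay 0.30 and 0.49 above in caf1Δ, 0.33 and 0.33 in caf1*ccr4*, 0.45 and 0.08 in mot2Δ and 0.19 and 0.14 in ccr4Δ. TPM values of these mutants understate falls as well. Relative to the median protein-coding gene of each library, the 53 genes lay at -0.71 and -0.72 in the rrp6Δ libraries, below all 4 wild-type libraries (-0.31 to 0.20). So did every library of caf1Δ (-0.73 and -0.45), clr4Δ (-0.50 and -0.49) and caf1*ccr4* (-0.51 and -0.39). The same held for swi6Δ (-0.60 to -0.32) and ago1Δ (-0.42 to -0.34).

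**Figure D2:**
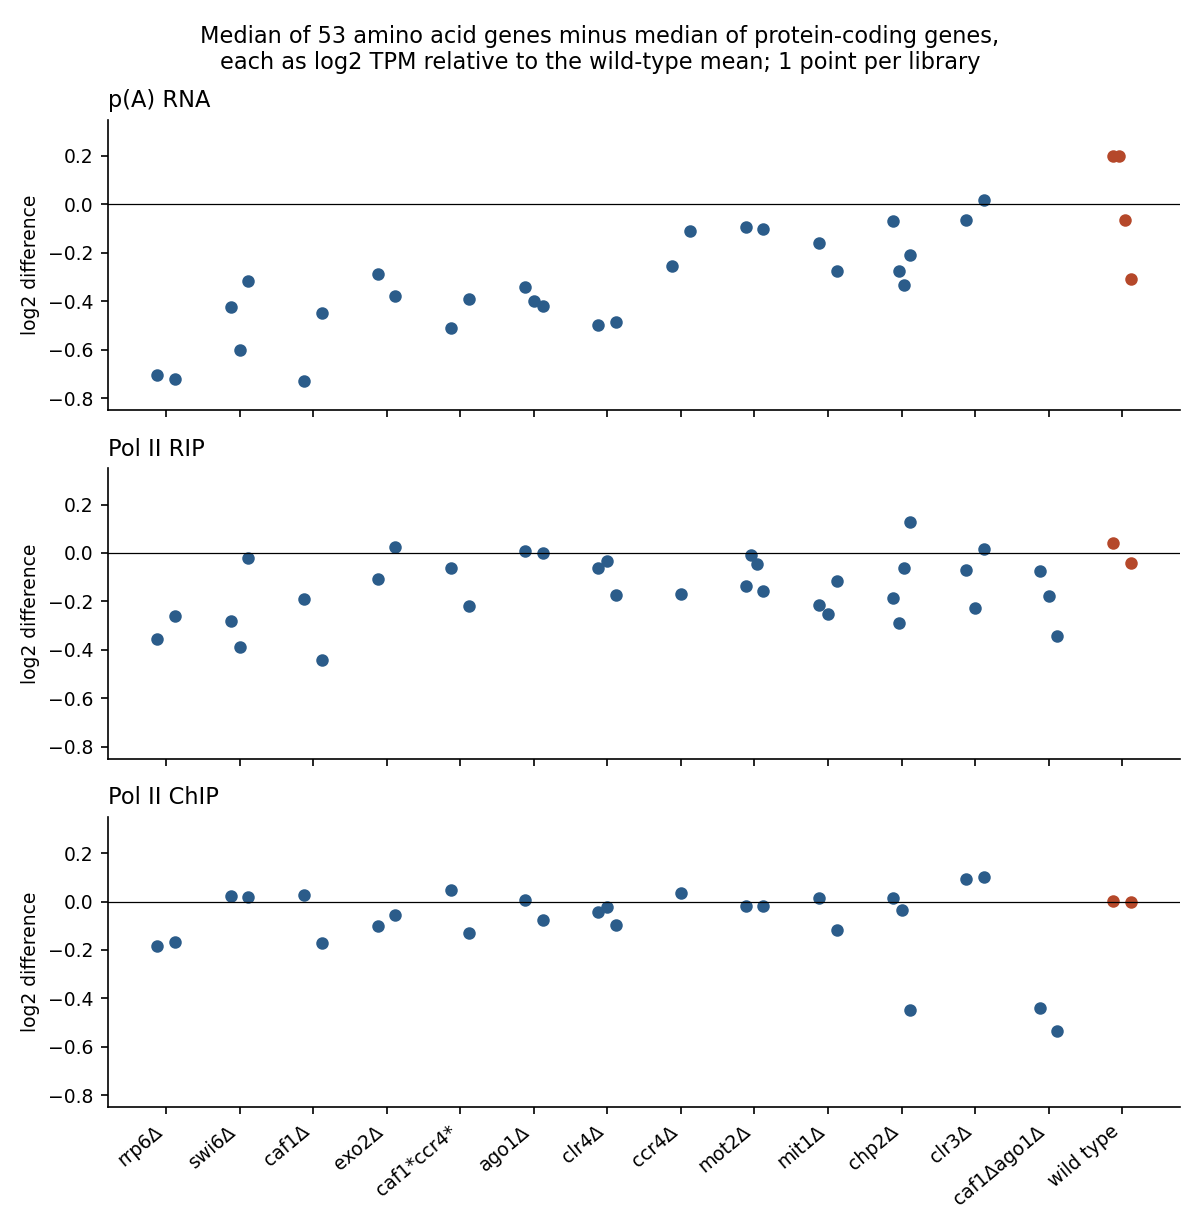
Each point is 1 library: the median of the 53 amino acid genes minus the median of protein-coding genes, both as log2 TPM relative to the wild-type mean, in p(A) RNA, RIP and ChIP. In p(A) RNA the 2 rrp6Δ libraries lie at -0.71 and -0.72 and the 4 wild-type libraries between -0.31 and 0.20. All libraries of caf1Δ, clr4Δ, caf1*ccr4*, swi6Δ and ago1Δ lie below wild type as well.

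The count in rrp6Δ held best when libraries were left out. Without wild-type libraries 1, 2, 3 or 4 it was 34, 37, 38 and 38, without either rrp6Δ library 29, and 24 when rrp6Δ and wild type were fitted alone. All 34 genes called without library 1 were among the 38. Fitted with wild type alone, mot2Δ had 1 lower call and the other 10 mutants had none. Without wild-type library 1, swi6Δ had 8 lower calls, exo2Δ 6, ago1Δ 7 and clr4Δ 3, and without library 2 these were 13, 9, 9 and 4. Without library 3 they were 27, 19, 18 and 7, and without library 4 they were 36, 25, 28 and 31. The counts of the deadenylase mutants moved less: without libraries 1, 2, 3 and 4 in turn, caf1Δ had 17, 21, 18 and 21 lower calls and caf1*ccr4* had 12, 13, 17 and 22. In the same order ccr4Δ had 1, 1, 0 and 3 and mot2Δ had 2, 4, 2 and 3. Within the mutants, leaving out replicate 2 took swi6Δ to 7 lower calls and replicate 1 to 17, leaving out replicate 1 took caf1Δ to 4, leaving out replicates 1 and 2 in turn took caf1*ccr4* to 4 and 3 and exo2Δ to 3 and 0, replicates 1, 2 and 3 took ago1Δ to 8, 5 and 5, and clr4Δ had 0 without either library. The few calls of ccr4Δ were lost without either of its libraries, and mot2Δ had 1 lower call without either of its own. The 5 higher calls of exo2Δ were 3 without either of its libraries.

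Groups that do not overlap were counted as well, which needs no fitted spread. On the TMM scale (depth-scaled counts after trimmed-mean normalization), 42 of 53 genes lay below all 4 wild-type libraries in both rrp6Δ libraries, against 29.6% of protein-coding genes. The counts were 28 in clr4Δ (12.1%), 22 in caf1Δ (12.5%), 22 in caf1*ccr4* (14.0%), 20 in swi6Δ (10.4%), 20 in exo2Δ (22.1%) and 18 in ago1Δ (9.88%). They were 13 in ccr4Δ (10.2%), 7 in mot2Δ (8.46%), 6 in mit1Δ (6.30%), 3 in clr3Δ (11.3%) and 2 in chp2Δ (0.950%). The order differs from that of the calls, since clr4Δ came second here with 7 calls in the test.

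Serine and one-carbon genes were all lower in rrp6Δ, 5 of 5, with a median log2 fold change of -1.69. Phosphoserine phosphatase, encoded by ser2, catalyses the last step of serine synthesis. It had 81.1 and 87.8 TPM in rrp6Δ, against 261, 236, 308 and 290 TPM in wild type. Both mutant libraries lay far below all wild-type libraries, and wild type was even at this gene (log2 fold change -2.04, SE 0.26, adjusted p = 3.34e-06, edgeR). In rrp6Δ 29.6% of protein-coding genes lay below all wild-type libraries. The earlier steps, ser3 (phosphoglycerate dehydrogenase, -1.53) and ser1 (phosphoserine aminotransferase, -1.20), were lower too. Both hydroxymethyltransferases, which pass one-carbon units from serine to folate, fell: shm2 had 39.0 and 38.1 TPM in rrp6Δ and 121, 136, 86.5 and 54.0 TPM in wild type (-1.69, SE 0.27), and shm1 had 187 and 206 TPM in rrp6Δ and 637, 879, 326 and 261 TPM in wild type (-1.73, SE 0.36). Fitted with wild type alone, shm1 had an adjusted p of 0.052 (edgeR).

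All 7 lysine genes were lower in rrp6Δ (median -1.31). Homoaconitate hydratase, lys2, had 107 and 106 TPM in rrp6Δ, against 284, 290.2, 246 and 179 TPM in wild type, with no overlap (-1.56, SE 0.21, adjusted p = 5.15e-06, edgeR). The next enzyme of the pathway, homoisocitrate dehydrogenase (lys12), had 66.0 and 70.7 TPM in rrp6Δ and 342, 324, 117 and 129 TPM in wild type (-2.06, SE 0.35). Its groups did not overlap, and the wild-type libraries spread almost as widely as the fold change itself. For lys2 and lys12 alike, 29.6% of protein-coding genes lay below wild type in the same way. Homocitrate synthase (lys4, the first step) changed by -1.71, lys9 by -1.31, lys1 (aminoadipate-semialdehyde dehydrogenase) by -1.24 and lys3 (saccharopine dehydrogenase) by -0.83. The phosphopantetheinyl transferase lys7, which activates that reductase, had 45.3 and 50.6 TPM in rrp6Δ, within the wild-type range of 37.0 to 73.0 TPM, and passed only narrowly (-0.60, adjusted p = 0.044, edgeR).

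Branched-chain genes were lower in rrp6Δ without exception, 3 of 3 for isoleucine and valine (median -1.47) and 2 of 2 for leucine (-1.41). Acetolactate synthase makes the first committed step, and its regulatory subunit ilv6 had 248 and 244.5 TPM in rrp6Δ, against 604, 642, 549 and 377 TPM in wild type (-1.47, SE 0.26). The catalytic subunit ilv1 had 147 and 156 TPM in rrp6Δ and 335, 354, 288 and 198 TPM in wild type (-1.28, SE 0.22). For leucine, isopropylmalate dehydratase (leu2) had 135 and 134 TPM in rrp6Δ and 425, 460, 247 and 203 TPM in wild type (-1.64, SE 0.28). None of these 3 genes overlapped between the groups, and 29.6% of protein-coding genes lay below wild type in the same way. The reductoisomerase ilv5 changed by -1.68 and isopropylmalate synthase (leu3) by -1.19.

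Aromatic, histidine and arginine genes were lower in part. In rrp6Δ, 2 of 3 shikimate genes fell, aro2 (chorismate synthase, -1.24) and aro1 (a multifunctional enzyme of the shikimate pathway, -1.18), and the third, chorismate mutase (aro7), did not pass (-0.17). Of the 6 trp genes, the 4 that encode tryptophan enzymes were lower, from -1.16 for trp1 (anthranilate synthase) to -0.68 for trp4, and the 2 ion channel genes did not pass. In histidine synthesis his1 (-0.99), his2 (-0.82) and his4 (-0.76) were lower and his5 was not called (-0.67, adjusted p = 0.06, edgeR). In arginine synthesis 7 of 10 were lower, led by arg4 (carbamoyl-phosphate synthase, -1.43), arg12 (argininosuccinate synthase, -1.16) and arg41 (argininosuccinate lyase, -1.05), and arg6, arg7 and arg82 did not pass.

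Methionine and sulfur genes split. In rrp6Δ, 5 of 12 were lower (median -0.51 over the 12). Homocysteine methyltransferase, met26, had 292 and 318 TPM in rrp6Δ, against 1316, 1671, 638 and 433 TPM in wild type (-2.05, SE 0.39, adjusted p = 3.16e-04, edgeR). Homocysteine synthase, met17, had 83.0 and 88.5 TPM in rrp6Δ and 322, 228, 182 and 159 TPM in wild type (-1.71, SE 0.36). Both genes act at the end of the pathway and their groups did not overlap, while 29.6% of protein-coding genes lay below wild type in this way. Also lower were met10 (sulfite reductase subunit, -1.09), met7 (folylpolyglutamate synthase, -0.76) and met1 (uroporphyrin methyltransferase, -0.62). Genes of sulfate activation and reduction did not pass, with met14 at -0.57 and met16 (phosphoadenosine phosphosulfate reductase) at -0.33, nor did met3, met6, met8, met9, met11 and the homoserine kinase thr1 (-0.35).

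Beyond rrp6Δ, tryptophan synthase (trp2) was called in the largest number of mutants. It was lower in 7 of 12, from -0.50 in exo2Δ to -0.96 in caf1Δ. It had 227 and 265 TPM in caf1Δ, against 370, 396, 372 and 324 TPM in wild type (-0.96, SE 0.16, adjusted p = 4.37e-04, edgeR), and 182, 260 and 272 TPM in swi6Δ (-0.62, SE 0.14). Wild type was even at trp2, and the libraries of both mutants lay below it, as did 12.5% of protein-coding genes in caf1Δ and 10.4% in swi6Δ. Without the other mutants in the fit the adjusted p for caf1Δ was 0.18.

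Each of lys12, lys2, lys9, arg12, ser1 and lys3 was lower in 6 mutants. In swi6Δ the largest called change was at arg12, with 79.0, 141 and 170 TPM in swi6Δ and 360, 442, 234 and 165 TPM in wild type (-1.21, SE 0.23). The highest swi6Δ library overlapped the lowest wild-type library. In clr4Δ the 7 genes that fell were arg12 (-1.19), shm2 (-1.17), arg11 (-1.07), lys2 (-1.02), arg1 (-0.88), ilv1 (-0.87) and trp2 (-0.81). In ago1Δ the largest changes were at leu2 (-1.19) and lys12 (-1.07).

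In the deadenylase mutants the genes with the largest changes were lys12 (-1.78 in caf1Δ and -1.79 in caf1*ccr4*), aro2 (-1.41 and -1.23) and ilv5 (-1.23 and -1.10). Chorismate synthase, aro2, had 129 and 146 TPM in caf1Δ, against 402, 307, 206 and 199 TPM in wild type. In caf1Δ, ilv5 had 496 and 698 TPM, and its wild-type libraries (539 to 1784 TPM) overlapped that range on the TPM scale, which sat higher in caf1Δ. The ilv5 call was lost under 4 of 11 alternatives. In ccr4Δ, with 2 libraries, arg82 and met8 were lower and trp1322 was higher (0.76). In mot2Δ, apart from arg7, met16 was lower (-0.53) and met3, cystathionine gamma-synthase, was higher (0.68).

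In exo2Δ 5 of the 53 genes were higher than wild type, a share close to the 10.6% of protein-coding genes called higher there. Homoserine O-acetyltransferase, met6, had 420 and 406 TPM in exo2Δ, against 125, 122, 223 and 200 TPM in wild type (1.25, SE 0.27). The argininosuccinate lyase arg7 had 64.9 and 53.2 TPM in exo2Δ and 29.9, 31.3, 26.1 and 30.3 TPM in wild type (0.97, SE 0.24). The kinase gene arg82 (0.94), lys7 (0.90) and met14 (0.82) were higher as well. In these 5 of the 53 genes both exo2Δ libraries lay above the 4 wild-type libraries, against 19.6% of protein-coding genes. The gene lys7 was also higher in swi6Δ (0.65), and that call was lost under 5 of 12 alternatives.

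Genes of other amino acid pathways were taken from a list of 25, of which 21 were found (such as eca39, a branched-chain aminotransferase, asn1, asparagine synthetase, and gln1, glutamine synthetase). In rrp6Δ 12 of these 21 were lower and 0 higher (median -0.77), led by sua1 (sulfate adenylyltransferase, -2.18) and eca39 (-1.89), and in swi6Δ 8 were lower (20.7% and 10.6% of protein-coding genes were lower in these mutants). Of 9 genes that regulate the amino acid response, such as the kinase gene gcn2 and the transcription factor gene fil1, 1 was lower in rrp6Δ (gcn1, -0.99) and 1 in swi6Δ (pof1, -0.55), about the share of all protein-coding genes or less. Both gcn2 (-0.02) and fil1 (0.35) had values near 0 that did not pass.

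In rrp6Δ some markers of mating and meiosis were higher, as were 11.9% of protein-coding genes in p(A) RNA. Of 8 such markers 5 were higher in p(A) RNA, rec8 by 6.03, spo5 by 5.96, mei4 by 5.63, mfm1 by 1.69 and mei2 by 1.32 (log2). Their summed level was 473 to 557 TPM in rrp6Δ, against 30.9 to 39.3 TPM in wild type, and none of the 8 was at 0 in every library. Most of the rrp6Δ sum lay in mei4, spo5 and rec8, with medians of 182, 166 and 101.5 TPM. The markers ste11, mam2 and map2 were not called. In rrp6Δ and wild type, ste11 had 15.6 to 20.1 and 7.91 to 14.1 TPM, mam2 11.2 to 11.3 and 3.55 to 6.34, and map2 4.29 to 5.45 and 2.28 to 3.83. In RIP the sums were 2569 to 2736 TPM in rrp6Δ and 738 to 961 TPM in wild type. In the other mutants the p(A) RNA sums lay between 24.9 and 104.5 TPM. Their part in the result was not tested.

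In Pol II RIP far fewer of the 53 genes passed, and so did far fewer of all protein-coding genes. Over 12 mutants with at least 2 libraries there were 3 calls higher and 6 lower among the 53, and p(A) RNA had 9 and 147 over its own 12 mutants. Of protein-coding genes, RIP and p(A) RNA called 2.72% and 32.5% in rrp6Δ and 0.0795% and 15.3% in swi6Δ. These shares were 0.696% and 14.4% in caf1Δ and 0.278% and 7.52% in ago1Δ. RIP includes caf1Δago1Δ, which holds 2 of the 3 higher and 4 of the 6 lower calls and has no p(A) RNA, and p(A) RNA includes ccr4Δ, which has 1 RIP library. In rrp6Δ, none passed with edgeR (2.72% of protein-coding genes called in either direction), where 12 had an unadjusted p under 0.05 and DESeq2 called 5 lower, and the median of the 53 genes was -0.27, against 0.04 over protein-coding genes. Counted by groups that do not overlap, 30 of the 53 genes lay below both wild-type RIP libraries in rrp6Δ (24.3% of protein-coding genes). In the same mutant 8 lay above (33.0%). In caf1Δ 26 lay below (17.6%) and in mit1Δ 20 (11.6%), but in ago1Δ 6 (19.3%) and in exo2Δ 12 (19.4%). RIP has 2 wild-type libraries, while p(A) RNA has 4, and the part of this in the lower number of calls was not tested.

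The test of the difference between both assays, the p(A) RNA change minus the RIP change, passed for 5 of the 53 genes in rrp6Δ, all lower (5.40% of protein-coding genes in either direction, 3.62% lower). For ser2 it was -2.24 (SE 0.41, adjusted p = 2.31e-04, edgeR), since RIP had 140 and 122 TPM in rrp6Δ, against 105 and 97.9 TPM in wild type. For ilv6 it was -1.93 (SE 0.50), with RIP levels of 474 and 372 TPM in rrp6Δ and 272 and 272 TPM in wild type. For lys2 it was -1.60 (SE 0.43), with 484 and 521 TPM in rrp6Δ and 430 and 435 TPM in wild type. At these 3 genes p(A) RNA lay below wild type and RIP lay above it, with RIP fold changes of 0.28, 0.55 and 0.13 (log2) that did not pass.

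**Figure D3:**
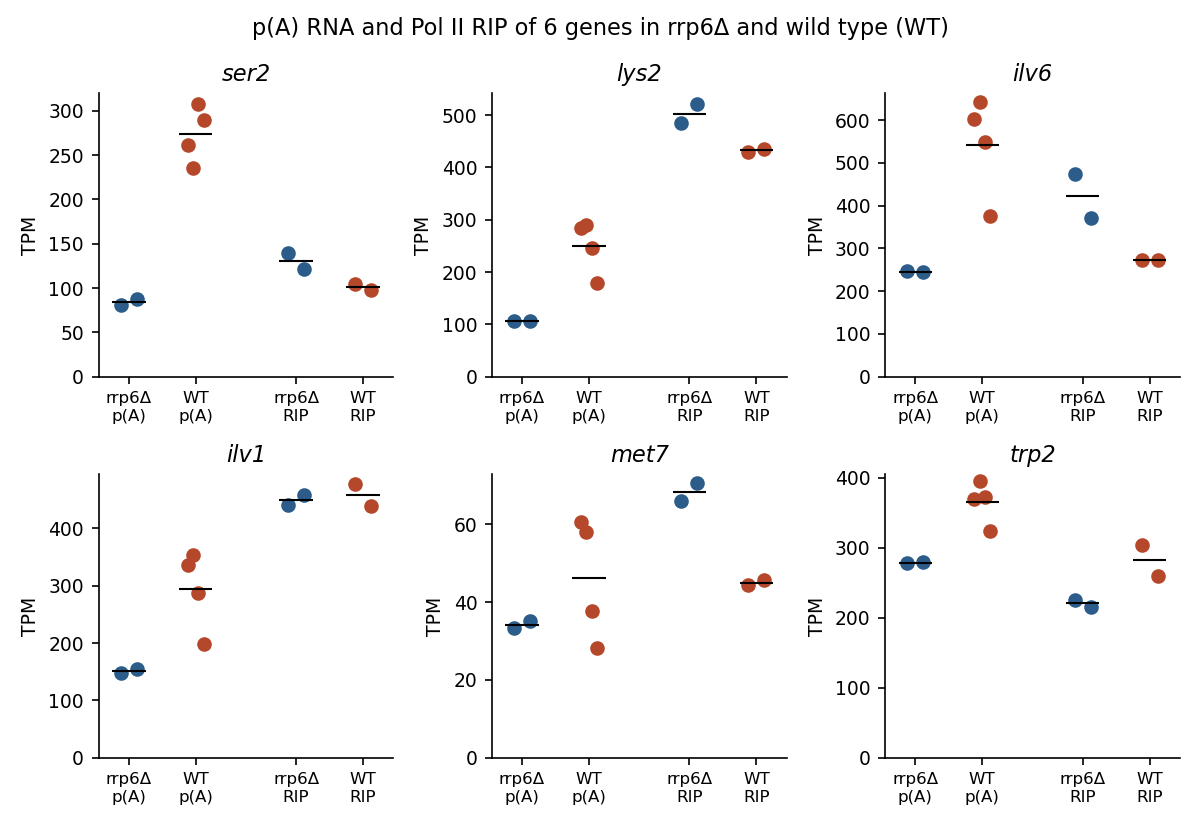
Points are single libraries in TPM for 6 genes, with p(A) RNA of rrp6Δ and wild type on the left of each panel, RIP on the right and a line at each mean. For ser2 the p(A) RNA points of rrp6Δ (81.1 and 87.8) lie below all wild-type points, and the RIP points of rrp6Δ (140 and 122) do not.

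The same difference was -1.20 (SE 0.36) for met7 and -1.09 (SE 0.34) for ilv1. Without wild-type RIP library 1, ser2 alone of the 5 kept its call (adjusted p = 0.0055, edgeR), and ilv6 (adjusted p = 0.096), lys2 (0.12), ilv1 (0.20) and met7 (0.23) lost theirs. In caf1*ccr4* 2 genes passed (6.86% of protein-coding genes in either direction): lys12 at -1.71 (SE 0.51), where p(A) RNA changed by -1.79 and RIP by 0.02, and trp1322 at 1.30 (SE 0.37). Both depended on the wild-type RIP libraries, as lys12 had an adjusted p (edgeR) of 0.11 without library 1 and 0.054 without library 2, and trp1322 had 0.21 without library 2. In the other 9 mutants tested in both assays, 0 of the 53 genes passed in edgeR, with 0 to 10 per mutant at an unadjusted p under 0.05. Few genes passed there at all, from 0% of protein-coding genes in swi6Δ, clr3Δ and clr4Δ to 0.494% in exo2Δ.

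Within RIP, caf1Δago1Δ had 6 calls (10.6% of protein-coding genes called). Isopropylmalate dehydratase, leu2, had 512, 489 and 438 TPM in caf1Δago1Δ, against 1119 and 952 TPM in wild type (-1.15, SE 0.20), and met26 had 3059, 2498 and 2839 TPM in caf1Δago1Δ and 5320 and 5384 TPM in wild type (-0.97, SE 0.26). Neither gene overlapped between the groups, and 19.8% of protein-coding genes lay below wild type in the same way. Both met10 (-0.80) and lys1 (-0.67) were lower as well, and met7 (0.82) and met16 (0.65) were higher. Of these, met26, met7 and lys1 lost their calls under 5 of 10 alternatives and met16 under 3, so leu2 and met10 were the calls that held. In caf1*ccr4* the only call was leu3, with 304 and 268 TPM in caf1*ccr4* and 647 and 552 TPM in wild type (-1.23, SE 0.27, adjusted p = 0.0083, edgeR; 5.52% of protein-coding genes called). Its call was lost without wild-type library 2 (adjusted p = 0.051, edgeR), without replicate 1 of the mutant and without the other mutants in the fit. The p(A) RNA of leu3 in caf1*ccr4* had a log2 fold change of -0.12, with no call.

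In Pol II ChIP, leaving out caf1Δago1Δ, the 53 genes gave 3 calls higher and 1 lower over 11 mutants. These were arg7 in mot2Δ (lower, 2.66% of protein-coding genes called), met1 in mot2Δ (higher), and met14 and met1 in exo2Δ (higher, 2.90%). In rrp6Δ none passed in edgeR (2.23% of protein-coding genes called), with 7 at an unadjusted p under 0.05 and 1 lower call in DESeq2, and the median of the 53 genes was -0.17. Both rrp6Δ libraries lay below both wild-type libraries at 26 of the 53 genes (28.5% of protein-coding genes) and above at 5 (26.5%). Uroporphyrin methyltransferase, met1, an enzyme of siroheme synthesis, had 335 and 278 TPM in exo2Δ and 232 and 266 TPM in mot2Δ, against 156 and 103 TPM in wild type (1.22, SE 0.19, and 1.02, SE 0.19). Both mutants lay above both wild-type libraries, as did 23.1% of protein-coding genes in exo2Δ and 26.5% in mot2Δ. The input level of met1 was 204 and 192 TPM in exo2Δ and mot2Δ, against 175 TPM in wild type. Both met1 calls were lost when the mutant and wild type were fitted alone (adjusted p = 0.10 in exo2Δ and 0.15 in mot2Δ, edgeR). Its p(A) RNA was not called in either mutant, at -0.61 in exo2Δ and 0.71 in mot2Δ.

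In caf1Δago1Δ, whose ChIP followed the input, 30 of the 53 genes were lower and 4 higher (39.9% of protein-coding genes called). The most occupied genes of wild type were the lowest: met26 had 363 and 274 TPM in caf1Δago1Δ and 2674 and 2676 TPM in wild type, and ilv5 had 223 and 175 TPM in caf1Δago1Δ and 873 and 688 TPM in wild type. The least occupied genes were higher, with lys7 at 158 and 163 TPM in caf1Δago1Δ and 40.2 and 69.5 TPM in wild type. Replicate 3 of chp2Δ, the other kept library close to the input, had 534 TPM for met26 and 146 TPM for lys7. The part of the low enrichment in these calls was not tested.

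The largest called change of the 53 genes in p(A) RNA and RIP, and in ChIP outside caf1Δago1Δ, was at arg7 in mot2Δ. This gene encodes an argininosuccinate lyase, the last step of arginine synthesis, and lies on chromosome II (SPBC1773.14). In p(A) RNA it had 0.98 and 3.26 TPM in mot2Δ, against 29.9, 31.3, 26.1 and 30.3 TPM in wild type (-3.87, SE 0.32, adjusted p = 3.46e-08, edgeR). The 2 mot2Δ libraries come from 2 strains (1022 and 1023), and both lay far below wild type. In RIP it had 5.42, 5.73, 5.42 and 3.56 TPM in mot2Δ and 81.3 and 60.3 TPM in wild type (-3.77, SE 0.23, adjusted p = 2.72e-11, edgeR), and it was the only call of the 53 genes in RIP of mot2Δ (2.03% of protein-coding genes called). In ChIP it had 15.9 and 16.4 TPM in mot2Δ and 90.9 and 66.0 TPM in wild type (-2.20, SE 0.23, adjusted p = 3.80e-05, edgeR), all of strain 1022 in these 2 assays. The ChIP call was lost when mot2Δ and wild type were fitted alone (adjusted p = 0.058). The second argininosuccinate lyase, arg41, was not called in mot2Δ, with 178 and 112 TPM in mot2Δ and 163, 189, 155 and 118 TPM in wild type.

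The low level of arg7 in mot2Δ was shared by its neighbours. In gene order (from the RefSeq annotation), a run was extended from arg7 for as long as each gene lay below wild type in p(A) RNA, RIP and ChIP. It held 24 adjacent protein-coding genes, 16 before arg7 to 7 after it, whose direction was therefore set by the rule. Of the 24, 19 were called lower in p(A) RNA, 15 in RIP and 18 in ChIP, with medians of -1.63, -1.39 and -1.17. Of all protein-coding genes, 2.22%, 1.45% and 1.16% were called lower in these assays of mot2Δ. The lowest values in p(A) RNA and RIP were at SPBC1773.13, the gene just before arg7 (-4.92 and -4.23), and in ChIP at arg7 itself. The gene just after it, dal52, changed by -3.86, -3.62 and -1.94. The run includes car1, the arginase gene (-1.72 in p(A) RNA, called). In the mot2Δ input the 24 genes had a median of 0.94 of the other input libraries (0.79 to 1.04, with arg7 at 0.79).

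**Figure D4:**
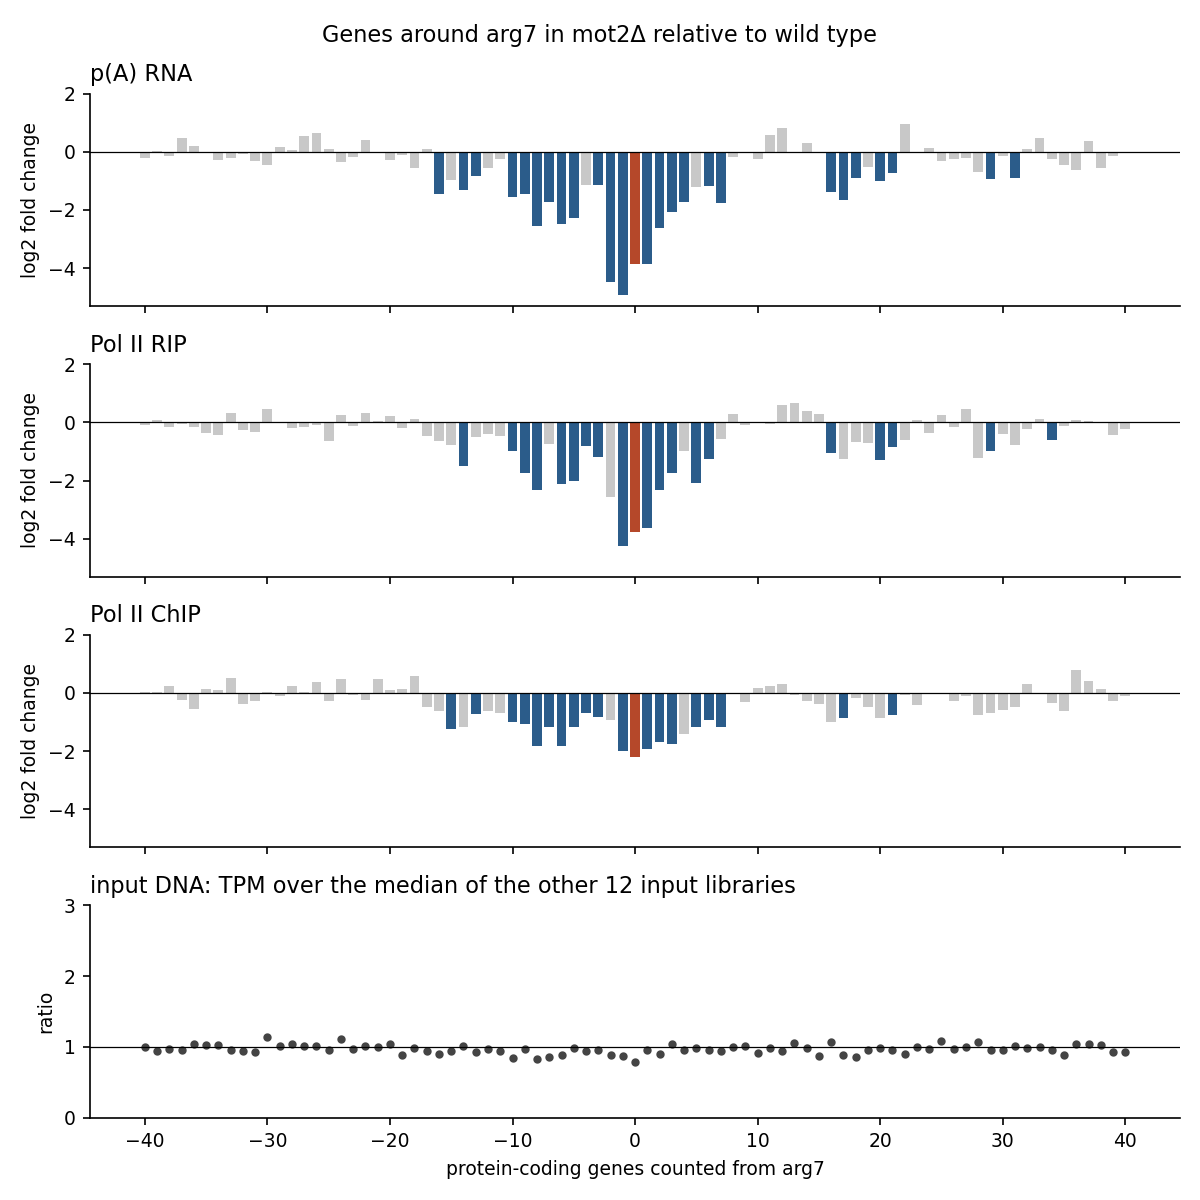
Bars give the log2 fold change of mot2Δ against wild type for protein-coding genes counted from arg7 (red) in p(A) RNA, RIP and ChIP, blue where called and grey where not, and points give the input ratio to the other 12 input libraries. A run of 24 genes around arg7, set as genes below wild type in all 3 assays, has medians of -1.63, -1.39 and -1.17 and a median input ratio of 0.94.

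In exo2Δ, met14 was higher in all 3 assays. Adenylyl-sulfate kinase, the met14 product, acts early in sulfate assimilation, and the gene lies on chromosome I. In p(A) RNA it had 1660 and 1579 TPM in exo2Δ, against 646, 733, 1163 and 1028 TPM in wild type (0.82, SE 0.26, adjusted p = 0.031, edgeR). In RIP it had 607 and 592 TPM in exo2Δ and 199 and 177 TPM in wild type (1.68, SE 0.26), the only call in RIP of exo2Δ (1.73% of protein-coding genes called), and in ChIP 591 and 675 TPM in exo2Δ and 254 and 185 TPM in wild type (1.51, SE 0.22). Fitted with wild type alone, the ChIP call was lost (adjusted p = 0.072, edgeR). Here the input differed as well: met14 had 394 TPM in the exo2Δ input, against 185 to 261 TPM in the other 12 input libraries.

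The doubled input ran over many genes, set as a block where the running median of the input ratio over 5 genes stayed above 1.5. Around met14, 83 adjacent protein-coding genes, 30 before it to 52 after it, had an input level 1.56 to 2.47 times that of the other libraries, with a median of 1.93. Of these, 54 of 82 tested were called higher in p(A) RNA, 49 of 82 in RIP and 65 of 83 in ChIP, and 0 lower, with median log2 fold changes of 0.87, 1.03 and 1.08. Of all protein-coding genes, 10.6%, 1.39% and 1.73% were called higher in these assays of exo2Δ. No other gene of the 53 lies in that block, although hri1 of the regulator list and mam2 of the mating list do. The other 4 genes that were higher in exo2Δ p(A) RNA, and met1, had input levels within 1.5 times the median of all input libraries.

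**Figure D5:**
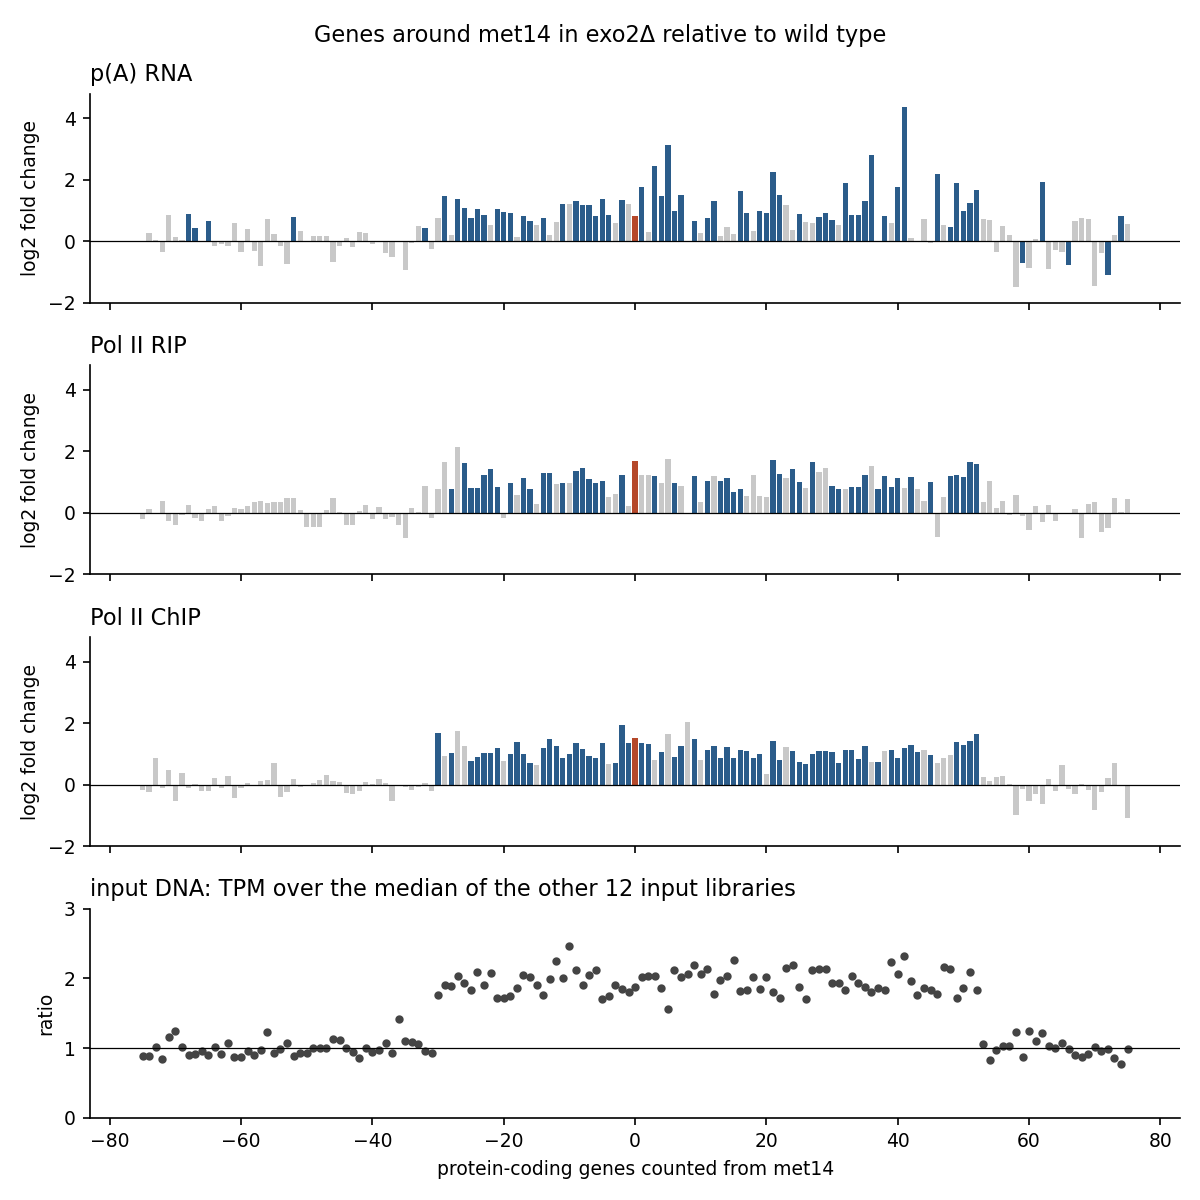
Bars give the log2 fold change of exo2Δ against wild type for protein-coding genes counted from met14 (red) in p(A) RNA, RIP and ChIP, blue where called and grey where not, and points give the input ratio to the other 12 input libraries. The input ratio is 1.93 at the median of 83 adjacent genes, and their median log2 fold changes are 0.87, 1.03 and 1.08.

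Neighbours were also counted for every call of the 53 genes. Among 5 protein-coding genes on each side of a called gene, 6 or more were called the same way beside 2 of 156 calls in p(A) RNA, 1 of 9 in RIP and 5 of 38 in ChIP, and these were arg7 in mot2Δ and met14 in exo2Δ, apart from 3 ChIP calls of caf1Δago1Δ. At least 3 were called the same way beside 22 of 156, 2 of 9 and 21 of 38 calls, and in ChIP all of these but arg7 and met14 were in caf1Δago1Δ, where 39.9% of protein-coding genes were called. Over 53 genes and 13 input libraries, 6 of 689 input values lay over 1.5 times the median of the libraries: met14 in exo2Δ, ilv5, met26 and shm1 in caf1Δ, and ilv5 and met26 in ago1Δ. These 3 genes, ilv5, met26 and shm1, are among the 4 highest in wild-type ChIP, and met26 had 457 TPM in the caf1Δ input and 309 TPM in the ago1Δ input, against 133 TPM in the wild-type input.

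The 3 marker genes are given by strain. For his3 (histidinol-phosphate aminotransferase), strain 1168 of caf1*ccr4* and strain 591 of caf1Δ carry his3-D1 with a his3+ copy at a telomere. In p(A) RNA his3 had 28.4 and 17.0 TPM in caf1*ccr4*, against 319, 396, 290.3 and 151 TPM in wild type. In RIP it had 27.7 and 13.9 TPM in caf1*ccr4* and 199 and 161 TPM in wild type, and in ChIP 84.2 and 35.2 TPM in caf1*ccr4* and 209 and 307 TPM in wild type. The groups did not overlap in any assay, and 14.0%, 23.8% and 19.3% of protein-coding genes lay below wild type in this way in p(A) RNA, RIP and ChIP. The his3 input level was 236 TPM in caf1*ccr4* and 234 TPM in wild type. In caf1Δ, the library of strain 591 had 5.73 TPM in RIP and 50.5 TPM in ChIP, and the library of strain 510, which lacks that allele, had 187 and 243 TPM.

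For his7 (a bifunctional enzyme of early histidine synthesis), rrp6Δ carries the allele his7-366. Its p(A) RNA had 139 and 129.9 TPM in rrp6Δ, against 225, 255, 191 and 145 TPM in wild type (-0.93), and its ChIP had 158 and 170 TPM in rrp6Δ and 296 and 236 TPM in wild type (-0.70). In exo2Δ, which lacks that allele, the values were -0.71 in p(A) RNA and -0.63 in ChIP. In rrp6Δ the his7 allele and the deletion cannot be told apart. In RIP his7 had 286 and 302 TPM in rrp6Δ and 245 and 198 TPM in wild type. For leu1 (isopropylmalate dehydrogenase), which carries a point allele in every listed strain, p(A) RNA was lower in rrp6Δ (-1.96), caf1Δ (-1.61) and caf1*ccr4* (-1.62), with 65.6 and 76.4 TPM in rrp6Δ, against 364, 282, 120 and 117 TPM in wild type. Wild type, rrp6Δ and strain 510 of caf1Δ carry the same leu1-32 allele, while caf1*ccr4* carries leu1-3. In caf1*ccr4* the leu1 and his3 alleles and the mutation cannot be told apart.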

How the data were processed

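Of 130 samples, the 113 libraries of p(A) RNA, Pol II RIP, Pol II ChIP and input were used. Total RNA and H3K9me2 ChIP were not used here. The authors aligned reads with STAR 2.7.3a to the PomBase genome, removed ribosomal reads and deposited raw read counts per feature (an extension of htseq-count, by strand for RNA), with no normalization or subtraction of input. Empty cells (42120) were read as 0. Multi-mapped reads were kept only in heterochromatin, so reads that 2 similar genes share were not counted.

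Testing required 10 or more counts in 2 or more libraries, which all 53 genes met, and was done in R 4.3.3 with edgeR 4.0.16 (TMM, quasi-likelihood test, 1 fit per assay over all genotypes, each mutant against wild type, Benjamini-Hochberg over all features, threshold 0.05, two-sided). The interaction of assay and genotype was fitted over p(A) RNA and RIP. The SE is the fold change divided by the square root of F. As in the study, ChIP libraries with a Spearman correlation below 0.8 to every other replicate were left out (replicate 3 of mit1Δ and of rrp6Δ). TPM was computed over 5137 features. Reads carry no molecular identifiers, and the spread between libraries limits precision more than counting does.

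Members and gene lists were chosen with earlier results of these data known. Values are given by rule: the genes called in most mutants, the largest called changes in the mutants with most calls, the highest and lowest in wild type, the markers and the interaction calls; any other gene was chosen after its values were seen. Names came from RefSeq, which matched 6852 of 7021 features. It was used for names, products, chromosomes and gene order, since the build of the files could not be compared with it, and promoter sequences were not used here. The alternatives were DESeq2 1.42.0, other size factors, no filter, single-mutant fits, the replicate number as a block, input subtraction with limma 3.58.1, all ChIP libraries, and leaving out each library. The tests were checked on simulated data.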

Additional observations from a re-analysis of the deposited data

Results flagged for a closer look

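The genes whose p(A) RNA change differed from their RIP change, by the interaction test in edgeR, are those already described. In rrp6Δ the p(A) RNA change minus the RIP change was -2.24 for ser2, -1.93 for ilv6, -1.60 for lys2, -1.20 for met7, -1.09 for ilv1 and -1.17 for the marker his7 (log2). In caf1*ccr4* it was -1.71 for lys12 and 1.30 for trp1322.

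Among the 4 mot2Δ libraries of RIP, the lowest arg7 level, 3.56 TPM, stood apart from the other 3, which lay between 5.42 and 5.73 TPM. This was 1 of 60 groups of at least 4 libraries tested in this way, and chance marks about 1 in 20.

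Input DNA is not part of the comparisons. There met14 had 394 TPM in exo2Δ, above the other 12 input libraries, and with 1 input library of exo2Δ this level has no replicate.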

How the results depend on the processing

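Among the changes picked by the naming rule, which were refitted under the alternatives, none reversed its direction. When each mutant was fitted with wild type alone, there were in p(A) RNA 25 lower calls, against 147 with all genotypes, and 1 higher against 9, in RIP 3 lower against 6, and in ChIP 3 higher against 7; these fits have fewer samples to estimate the spread. DESeq2 called 5 higher and 14 lower in RIP, against 3 and 6, and 208 lower in p(A) RNA. Leaving out 1 library at a time gave 90 to 208 lower and 6 to 10 higher calls in p(A) RNA (90 without wild-type replicate 1), 3 to 9 lower and 1 to 4 higher in RIP, 20 to 39 lower and 4 to 11 higher in ChIP, and 2 to 12 lower and 0 to 2 higher in the interaction. The lowest values came without wild-type replicate 2 and caf1Δago1Δ replicate 3 in RIP, caf1Δago1Δ replicate 1 in ChIP, and wild-type RIP replicates 1 and 2 in the interaction, and ChIP reached 11 higher without chp2Δ replicate 3. In ChIP without caf1Δago1Δ (3 higher, 1 lower), subtracting scaled input with limma gave 4 lower, and leaving out the libraries close to input, chosen after seeing the data, gave 5 higher and 6 lower. The replicate numbers share nothing in the labels, and the correlation of same-numbered libraries had a median of 0.02 in p(A) RNA (over 0.1 in 65 of 163 pairs). With the replicate block there were 161 lower and 8 higher calls in p(A) RNA, 15 lower in RIP, 40 lower and 9 higher in ChIP, and 13 lower and 2 higher in the interaction; the cause was not tested. RIP and ChIP have 2 wild-type libraries each, and RIP totals go down to 320003 counts.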
